A study of Oryza sativa with 24 samples.

Results

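The loci described here are the 135 rows of a rice count table whose identifiers run from LOC_Os01g04400 to LOC_Os01g06999, a stretch of low numbers on chromosome 1, out of 26480 rows in all. They were chosen by the measured differences in read counts between tap and wild type (WT) inflorescences in these same libraries, so every tap against WT value below is a description, with no test, and nothing is read from the share of loci called. Of the 135 loci, 118 passed the filter on low counts and 17 did not. The largest count of an untested locus in any library was 16, and the largest sum over the 24 libraries was 120.

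Inflorescences of the tap mutant and of WT, both in the line that the labels name 9522, were collected at 2 mm and at 3 mm from plants at high or low temperature. The 8 groups are tap 2 mm high, WT 2 mm high, tap 3 mm high, WT 3 mm high, tap 2 mm low, WT 2 mm low, tap 3 mm low and WT 3 mm low, each with 3 libraries. The titles call the mutant ild and the genotype field calls it tap. The degrees, the duration of the treatment, the age of the plants, the mutated locus, how many plants were pooled and whether replicates came from separate plants are stated in none of the sources used here, so any p-value measures the spread between these libraries, which may be technical.

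Library totals ran from 19819257 to 21305381 counts. At high temperature the mutant columns are headed iHT. They were taken as tap because the only other columns of that temperature are headed WT, and every high-temperature tap value rests on this inference. The deposited rows have at least 10 counts summed over the 12 low-temperature libraries, so loci with reads at high temperature alone are not covered. TMM factors were 0.905 to 0.978 at high and 1.03 to 1.08 at low temperature, and temperature cannot be told apart from separate processing of these sets of libraries. No annotation used here gives a name or function to any of the 135 identifiers, and the RefSeq gene table matched 0 of them, so loci are given by identifier, no function is stated, and the inflorescence label was not checked against marker genes. In whole inflorescences, fewer cells of a type and less RNA per cell cannot be told apart.

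Identifiers of this kind number the annotated loci in order along a chromosome, so neighbours in the numbering are neighbours on the chromosome. The inflorescence of rice, the panicle, is a branched axis that bears the spikelets and later the grain, and the labels stage it by length. A read count per locus reports how many sequenced fragments were assigned to that annotated gene; a count of 0 says that no read was assigned at this depth, and a count says nothing of the DNA of either genotype. Levels are in CPM (counts scaled to the library size, not to the length of the locus) and are compared between samples. Where CPM are summed over loci or loci are sorted by CPM, loci count by their reads, whatever their length.

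A difference was said to hold when the fitted log2 difference of tap against WT was at least 1 in size, with the same sign and with no overlap of the library CPM, in all 4 comparisons (2 mm and 3 mm at high temperature, 2 mm and 3 mm at low temperature). In the segment 20 of 118 tested loci (16.9%) met this, 6 with more and 14 with fewer reads in tap. Over the whole table the share was 0.824%, or 195 of 23658 tested loci, with 136 higher (0.575%) and 59 lower (0.249%). The segment therefore held 14 of the 59 loci lower in tap and 6 of the 136 loci higher in tap. All 20 were also called in all 4 comparisons by edgeR's quasi-likelihood test at an adjusted p under 0.05, a set that numbered 30 in the segment (10 higher, 20 lower; 2.16% over all tested loci). Both rules use the same libraries, so the calls of these 20 are no further support.

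**Figure D1:**
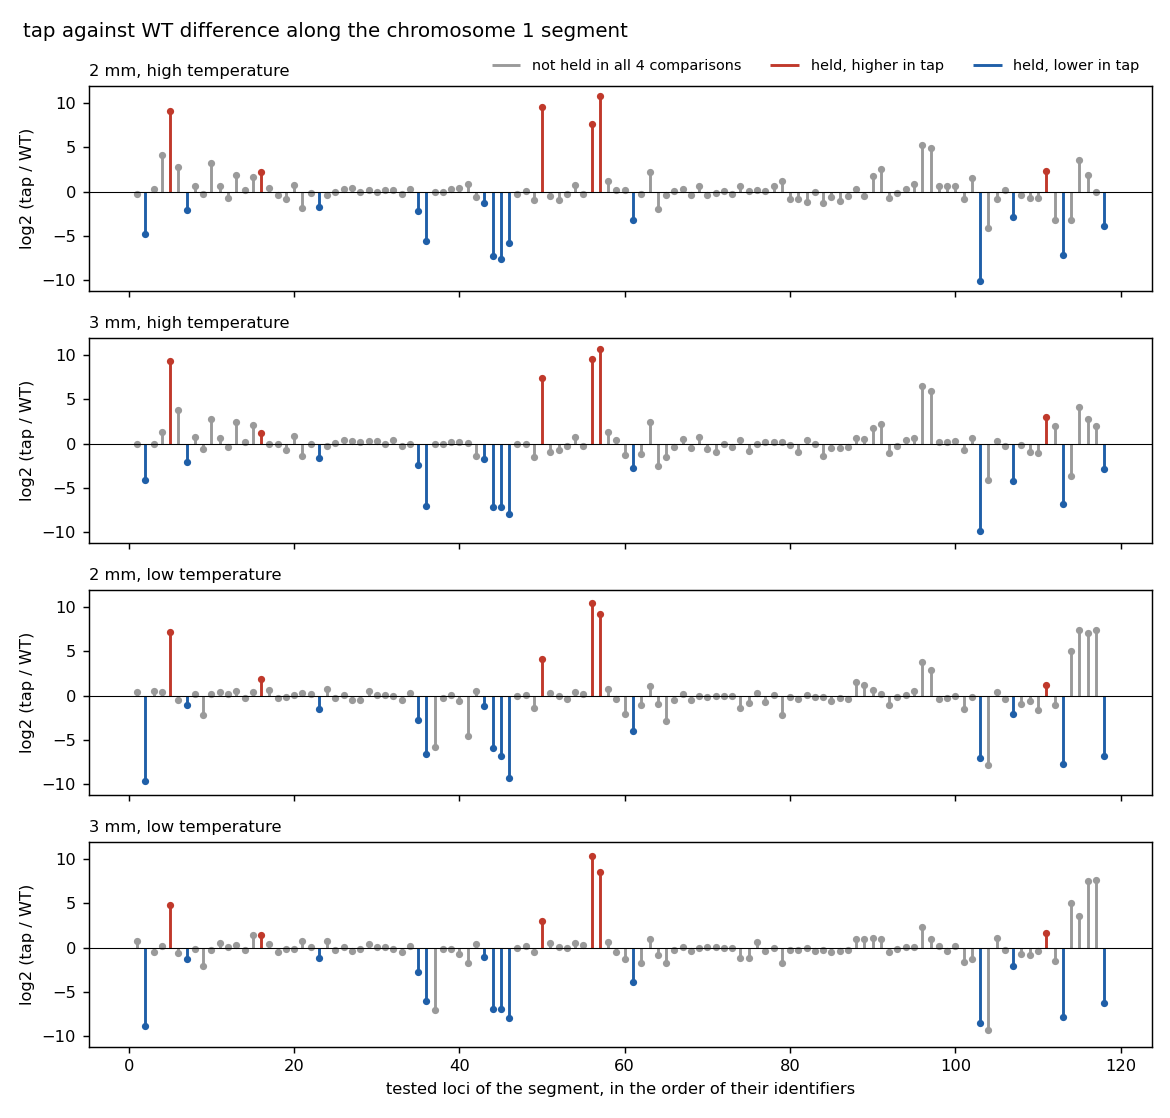
Fitted log2 difference of tap against WT (vertical axis) for the 118 tested loci in the order of their identifiers (horizontal axis), 1 panel per comparison; red and blue mark the 6 higher and 14 lower loci that held in all 4. Held loci lie at both ends, with none, at the 2-fold limit, among 41 consecutive tested loci between them. Sizes above about 7 come from loci at or near 0 counts in a genotype and are not bounds.

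Along the numbering, the held loci were LOC_Os01g04430 (lower), 04470 (higher), 04490 (lower), 04670 (higher), 04860, 05080, 05090, 05180, 05220, 05280 and 05289 (all lower), 05450, 05510 and 05530 (all higher), 05610, 06510 and 06560 (all lower), 06660 (higher), 06740 and 06920 (both lower). Between LOC_Os01g04430 and LOC_Os01g05610, 15 of 60 tested loci held. None of the next 41 consecutive tested loci, LOC_Os01g05620 to LOC_Os01g06500, held. That gap depends on the 2-fold limit, since at 1.5-fold LOC_Os01g05630, LOC_Os01g06130 and LOC_Os01g06490 within it met the rule. Between LOC_Os01g06510 and LOC_Os01g06920, 5 of 16 held. The longest unbroken run of held loci was 4, from LOC_Os01g05180 to LOC_Os01g05289, all of them lower in tap.

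Held loci were interspersed with loci at which the genotypes lay close together. In all, 33 of 118 loci (28%, against 55.5% of all tested loci) lay within 1.5-fold in all 4 comparisons. In the part with no held locus, 11 of 41 did, while 11, 10, 11 and 11 of the 41 differed at least 2-fold at 2 mm high, 3 mm high, 2 mm low and 3 mm low (13.2%, 14.9%, 7.2% and 6.21% of all tested loci). The next tested locus after LOC_Os01g05289, with 3 untested loci between them, was LOC_Os01g05420, which differed by log2 -0.23, 0.00, -0.07 and 0.01 in the same order of comparisons, and LOC_Os01g05430 after it by 0.02, -0.01, 0.09 and 0.14.

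At its lower end the window did not mark where held differences start. Its first held locus, LOC_Os01g04430, is its second tested locus, after LOC_Os01g04409, whose log2 differences were -0.25, -0.05, 0.40 and 0.80 in the same order of comparisons. Just below the window, LOC_Os01g04380 held too and was lower in tap, at -4.65, -6.09, -4.02 and -6.10. Its neighbour LOC_Os01g04370 was lower in tap in all 4 comparisons too, at -3.10, -2.90, -1.64 and -1.65. It met the rules of size and sign and did not hold only because library values overlapped. On the other side, LOC_Os01g04390 did not hold and changed sign between temperatures, at 0.69, 1.08, -0.48 and -0.66. The last held locus, LOC_Os01g06920, is the last tested locus of the window. Above it LOC_Os01g07070, LOC_Os01g07080 and LOC_Os01g07090 lay between -0.56 and 0.45 in all 4 comparisons. Both end loci lay near 0 counts at high temperature. WT means at 2 mm and 3 mm there were 0.17 and 0.10 CPM at LOC_Os01g04430, and 0.34 and 0.43 CPM at LOC_Os01g06920. For LOC_Os01g04430 at 3 mm high the bound was 1.98-fold, under the 2-fold limit that its fitted difference met. With at least 1 CPM required in the higher genotype in each comparison, neither end locus held.

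In the stretch of as many numbers directly below the segment 14 of 141 tested loci held (9.93%), and in the first stretch of the chromosome, numbers up to 01799, 4 of 53 did, the first of them LOC_Os01g01380. In the stretch of as many numbers directly above, 3 of 174 held (1.72%), namely LOC_Os01g07250, LOC_Os01g08440 and LOC_Os01g09290. Beyond that, chromosome 1 had 21 held loci among 2912 tested (0.721%, against 0.743% over all tested loci outside the segment). The most in any of these 26 stretches was 6 of 147 (4.08%), all higher in tap, at numbers 48600 to 51199. Held differences were thus found, with gaps such as that between LOC_Os01g05610 and LOC_Os01g06510, from LOC_Os01g01380 through the segment. They thinned out after LOC_Os01g06920.

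**Figure D2:**
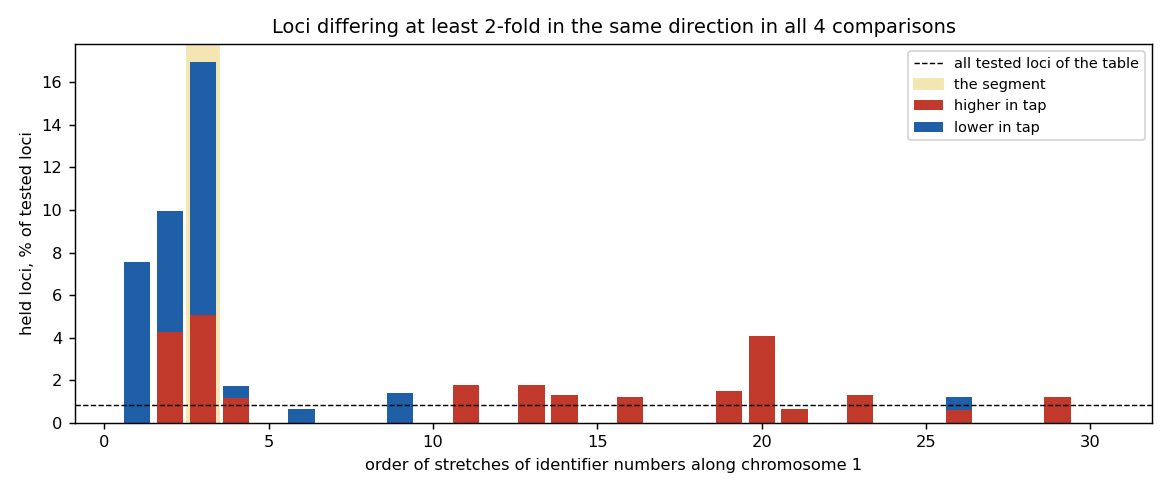
Share of tested loci that held in all 4 comparisons (vertical axis, %) in successive stretches of 2600 identifier numbers along chromosome 1 (horizontal axis; the first stretch is shorter), split into loci higher (red) and lower (blue) in tap; the dashed line is the 0.824% over all tested loci. The segment, shaded, has 16.9%, the stretches below it 9.93% and 7.55%, and the stretch above it 1.72%.

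Among the loci higher in tap, LOC_Os01g05530 and LOC_Os01g05510 are neighbours among the tested loci. LOC_Os01g05530 had 11.9, 11.6 and 10.3 CPM in tap libraries under high temperature at 2 mm and 11.8, 7.57 and 12 CPM in tap libraries at 3 mm, against 0 counts in all 6 WT libraries, at least 222-fold and 205-fold higher. At low temperature it had 18.8, 24.4 and 22.5 CPM in tap libraries at 2 mm and 20.7, 18.5 and 18.5 CPM in tap libraries at 3 mm, against 2 and 3 counts summed over the WT libraries of those lengths. Every tap library was far above every WT library.

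LOC_Os01g05510 had 5.1, 4.38 and 4.75 CPM in tap libraries under high temperature at 2 mm, against a single count over the WT libraries (ratio 280; the 95% counting interval ran 49.9 to 11100). Under high temperature at 3 mm it had 4.86, 3.92 and 5.07 CPM in tap libraries while WT had 0 counts, at least 90.1-fold higher in tap. Low-temperature tap libraries had 8.28, 10.5 and 7.66 CPM at 2 mm and 8.9, 7.24 and 8.44 CPM at 3 mm, while WT stayed at 0 counts. This locus was on in tap and off in WT throughout.

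LOC_Os01g04470 had higher tap levels at high than at low temperature, with WT at 0 or 1 counts throughout, so that its folds cannot be ranked between temperatures. Tap libraries at high temperature had 3.03, 3.74 and 3.09 CPM at 2 mm and 3.72, 4.2 and 3.52 CPM at 3 mm, against 0 counts in WT, at least 64.5-fold and 73.9-fold higher. At low temperature tap had 1.07, 0.686 and 0.981 CPM at 2 mm, against 0 counts in WT (at least 20.1-fold higher), and 0.876, 0.646 and 0.328 CPM at 3 mm, against 1 count in WT (ratio 39.8, interval 6.74 to 1610). The tap level of LOC_Os01g05450 was likewise higher at high temperature. It had 4.72, 4.27 and 5.17 CPM in tap libraries under high temperature at 2 mm while WT had 0 counts, at least 92.7-fold higher in tap. In 3 mm inflorescences of that temperature it had 3.17, 3.31 and 5.12 CPM in tap libraries and 1 count over the WT libraries (ratio 226, interval 40.1 to 8960). Its tap levels at low temperature were 0.187, 0.137 and 0.747 CPM at 2 mm, against 1 count in WT (ratio 23.5, interval 3.82 to 969). Under low temperature at 3 mm they were 0.83, 0.969 and 0.563 CPM, against 6 counts in WT, a ratio of 8.45.

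LOC_Os01g06660 was transcribed in both genotypes. It had 41, 42.5 and 39.6 CPM in tap libraries and 6.9, 10.3 and 7.71 CPM in WT libraries under high temperature at 2 mm. In 3 mm inflorescences it had 49.4, 47.7 and 47.7 CPM in tap libraries and 7.16, 5.2 and 6.2 CPM in WT libraries at 3 mm. At low temperature it had 14.1, 11.3 and 10 CPM in tap libraries and 4.97, 5.89 and 4.09 CPM in WT libraries at 2 mm. The longer inflorescences had 12.3, 13.1 and 15.9 CPM in tap libraries and 4.36, 3.88 and 4.35 CPM in WT libraries at 3 mm. The ratio of tap to WT was 4.93 and 7.8 at high temperature and 2.37 and 3.28 at low temperature, for 2 mm and 3 mm. LOC_Os01g04670, the last of the 6, had ratios of 4.77 and 2.31 at high temperature and 3.76 and 2.79 at low temperature in the same order of lengths.

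**Figure D3:**
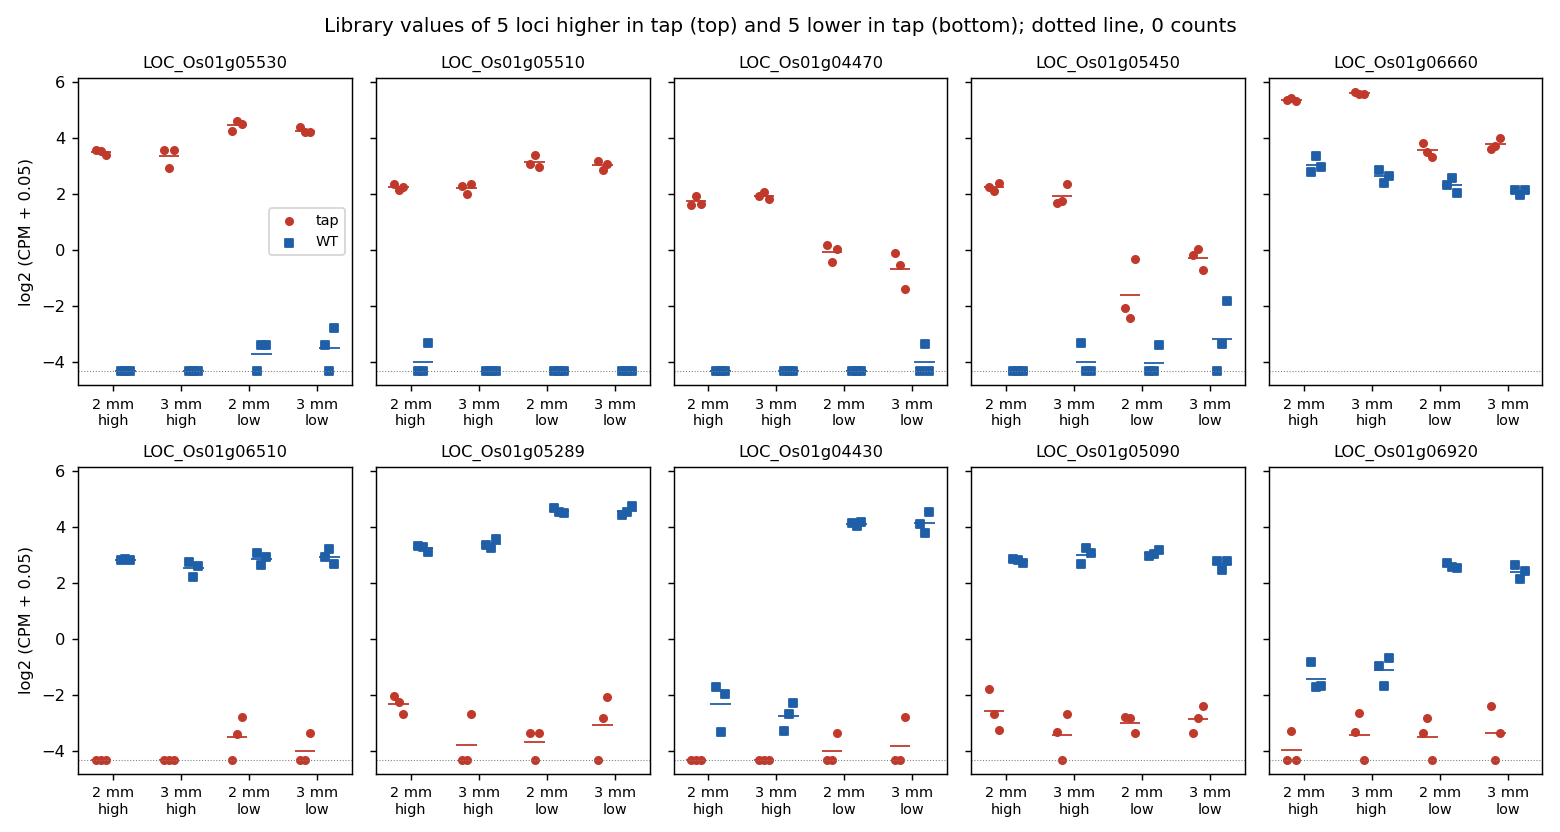
Library values as log2 of CPM plus 0.05 (vertical axis) of the 5 loci higher in tap (top row) and the 5 lower in tap (bottom row) that were described in full, in each length and temperature (horizontal axis), tap in red and left of WT in blue; points are libraries, bars are means of the 3 log values, and the dotted line is 0 counts. Tap and WT libraries do not overlap in any panel, and LOC_Os01g06660 is the only one of the 10 well above 0 counts in both genotypes.

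Among the loci lower in tap, LOC_Os01g06510 had 0 counts in all 6 tap libraries at high temperature, against 6.9, 7.14 and 6.99 CPM in WT libraries at 2 mm and 6.55, 4.58 and 5.99 CPM in WT libraries at 3 mm. At low temperature it had 3 counts in tap at 2 mm, against 8.2, 6.16 and 7.42 CPM in WT libraries (ratio of WT to tap 156, interval 53.2 to 761), and 1 count in tap at 3 mm, against 7.43, 9.25 and 6.34 CPM in WT libraries. The 12 WT libraries thus lay between 4.58 and 9.25 CPM, with tap at or near 0 counts.

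LOC_Os01g05289 had 9 counts in tap under high temperature at 2 mm, against 9.92, 9.65 and 8.48 CPM in WT libraries (ratio of WT to tap 60.8, interval 31.8 to 134), and 2 counts in tap at 3 mm, against 10.1, 9.36 and 11.6 CPM in WT libraries (298, interval 82.1 to 2470). Low-temperature libraries had 2 counts in tap and 25.4, 22.8 and 22.6 CPM in WT libraries at 2 mm, and 6 counts in tap and 21.3, 23.1 and 27 CPM in WT libraries at 3 mm. LOC_Os01g05090 likewise stayed near 0 in tap, with 8, 3, 5 and 6 counts over the libraries of 2 mm high, 3 mm high, 2 mm low and 3 mm low. Its WT levels were 7.16, 6.99 and 6.47 CPM, 6.29, 9.41 and 8.37 CPM, 7.65, 8.17 and 8.97 CPM, and 6.79, 5.47 and 6.72 CPM in the same order of groups.

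At LOC_Os01g04430 and LOC_Os01g06920 the WT level itself was lower at high temperature. LOC_Os01g04430 had 1 and 2 counts over the tap libraries of 2 mm and 3 mm at low temperature, against 17.3, 16.4 and 17.9 CPM and 17.1, 13.7 and 22.8 CPM in WT libraries. At high temperature it had 0 counts in tap and 10 and 6 counts in WT at 2 mm and 3 mm, at least 3.31-fold and 1.98-fold lower in tap. LOC_Os01g06920 had 3 and 4 counts over the tap libraries of 2 mm and 3 mm at low temperature, against 6.45, 5.8 and 5.77 CPM and 6.1, 4.35 and 5.25 CPM in WT libraries. At high temperature it had 1 and 3 counts in tap and 20 and 25 counts in WT (ratios of WT to tap 19.9, interval 3.18 to 823, and 8.23, interval 2.51 to 42.6).

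LOC_Os01g05610 was well above 0 in both genotypes, with 67.5, 57 and 66.6 CPM in tap libraries and 564, 589 and 579 CPM in WT libraries under high temperature at 2 mm. In 3 mm inflorescences it had 67, 67.5 and 75.6 CPM in tap libraries and 490, 461 and 450 CPM in WT libraries at 3 mm. At low temperature it had 26.5, 26.2 and 24.3 CPM in tap libraries and 393, 409 and 411 CPM in WT libraries at 2 mm. The longer inflorescences had 30.1, 27.9 and 28.2 CPM in tap libraries and 429, 400 and 474 CPM in WT libraries at 3 mm. The ratio of WT to tap was 9.05 and 6.67 at high and 15.7 and 15.1 at low temperature. Over all 20 held loci, summed CPM were 142 ± 6.49 in tap and 643 ± 12.7 in WT under high temperature at 2 mm, and 85.5 ± 4.15 in tap and 519 ± 9.71 in WT under low temperature at 2 mm (SD, n = 3 each). LOC_Os01g05610 alone made up most of the WT sums.

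Of the other loci lower in tap, LOC_Os01g05080 had ratios of WT to tap of 4.59, 5.33, 6.96 and 6.74, and LOC_Os01g06560 of 7.26, 19.5, 4.36 and 4.11, at 2 mm high, 3 mm high, 2 mm low and 3 mm low. LOC_Os01g04490, LOC_Os01g04860 and LOC_Os01g05180 had ratios between 2.11 and 4.26. LOC_Os01g05220, LOC_Os01g05280 and LOC_Os01g06740 had 0 counts in all 12 tap libraries. The first of these had 57, 52, 25 and 49 counts over the WT libraries of the 4 conditions, the second 70, 50, 46 and 48, and LOC_Os01g06740 had 52, 41, 88 and 92, so folds were bounds of at least 8.15 to 30.8.

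Loci were called on in a genotype and off in the other when every library of the first had at least 10 counts and every library of the second at most 1. In at least 1 of the 4 comparisons, 17 of 135 loci (12.6%) met this, against 0.439% of the 26410 loci with values in all libraries, and 9 of them were on in tap and 8 on in WT. By comparison, the numbers on in tap and on in WT were 5 and 4 at 2 mm high (0.273% of all loci on in either genotype), 6 and 2 at 3 mm high (0.257%), 6 and 5 at 2 mm low (0.121%) and 3 and 6 at 3 mm low (0.0947%). Only LOC_Os01g05510, on in tap, and LOC_Os01g06740, on in WT, met it in all 4 comparisons (0.0379% of all loci).

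Of the 17, 7 met it at each temperature, 3 at high temperature alone (LOC_Os01g05450, LOC_Os01g06420 and LOC_Os01g06440, all on in tap) and 7 at low temperature alone. The deposited rows were limited by their low-temperature counts, which leaves out loci with reads at high temperature alone. The numbers 3 and 7 therefore cannot be set against each other. LOC_Os01g06420 had 34, 29 and 25 counts in tap and 1, 1 and 0 in WT under high temperature at 2 mm, and 3, 1 and 1 in tap and 0, 0 and 0 in WT under low temperature at 2 mm. At low temperature LOC_Os01g06520 had 1, 0 and 0 counts in tap and 93, 99 and 135 in WT at 2 mm, while at high temperature no library of either genotype had more than 4. LOC_Os01g05100 had 0 counts in all 12 high-temperature libraries of both genotypes, so its genotype difference could be measured only at low temperature, where tap had 3 counts and WT 197 at 2 mm (ratio of WT to tap 64.2, interval 21.7 to 314).

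Near the upper end of the segment, LOC_Os01g06882 and LOC_Os01g06890 were on in tap at low temperature at both lengths. LOC_Os01g06836 was on in tap at 2 mm low but missed the rule at 3 mm low, where a WT library had 3 counts. These loci had at most 5 counts in any library of either genotype at high temperature. LOC_Os01g06890 had 30, 12 and 25 counts in tap and 0, 0 and 0 in WT under low temperature at 2 mm. LOC_Os01g06790, next to them among the tested loci, had 22, 22 and 32 counts in tap and 0, 0 and 2 in WT there. These 4 tested loci in a row were thus higher in tap at low temperature, between LOC_Os01g06740 and LOC_Os01g06920, both lower in tap.

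**Figure D4:**
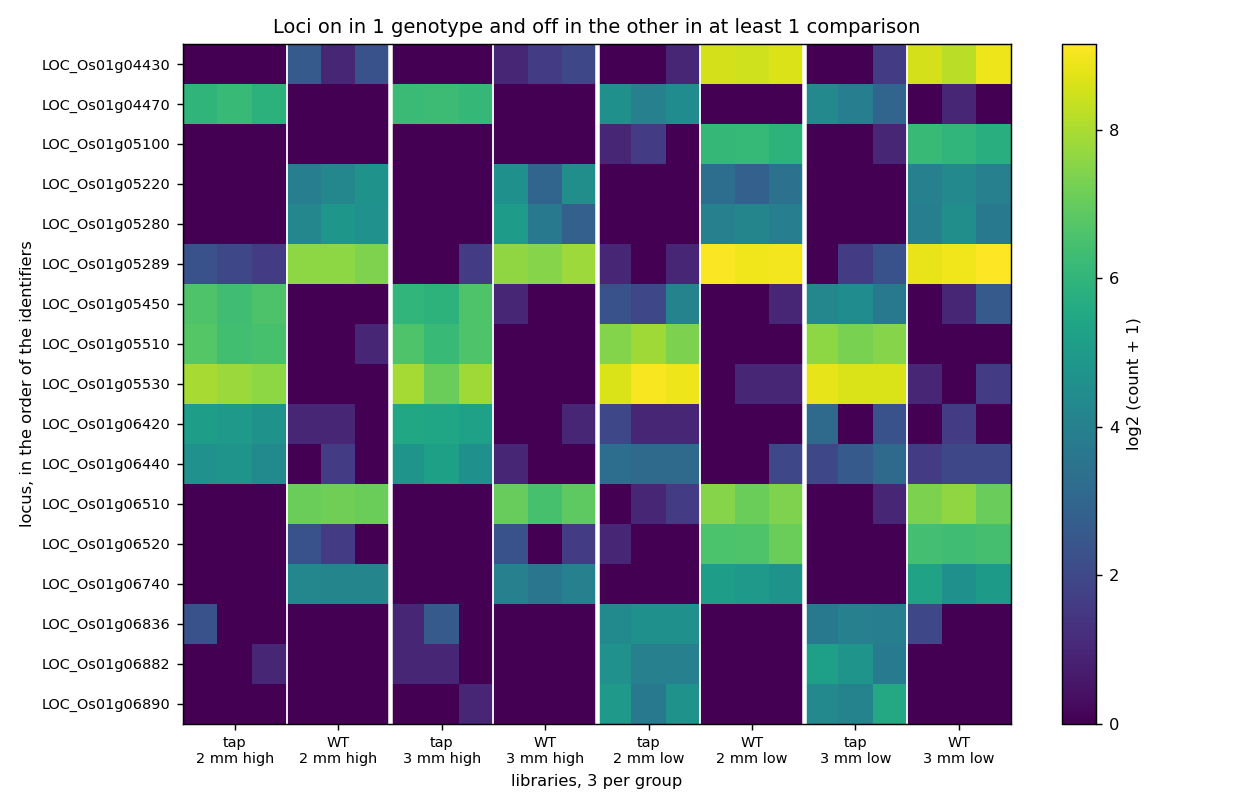
Counts as log2 of count plus 1 (colour) of the 17 loci on in a genotype and off in the other in at least 1 comparison, in identifier order from top to bottom, for the 24 libraries in groups of 3 with tap left of WT. LOC_Os01g05510 and LOC_Os01g06740 keep the pattern in all 4 pairs of groups, while the last 3 loci are brightest in tap at low temperature.

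In each comparison on its own, edgeR called 68 loci at 2 mm high (33 higher and 35 lower in tap), where 37% of all tested loci were called (18.4% higher, 18.6% lower). It called 66 at 3 mm high (29 and 37; 37.1% of all, 19.3% and 17.8%), 59 at 2 mm low (19 and 40; 15% of all, 7.67% and 7.3%) and 60 at 3 mm low (23 and 37; 11.7% of all, 5.52% and 6.18%). The median size of the log2 difference was 0.68, 0.67, 0.51 and 0.53 in the segment, against 0.33, 0.33, 0.20 and 0.19 over all tested loci. With loci at 0 counts in a group set to their bounds, the segment's medians were 0.63, 0.60, 0.51 and 0.53. The sign was the same in all 4 comparisons at 63 of 118 loci (53.4%), against 31.4% of all tested loci.

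Of the segment loci called at both temperatures, 36 had the same direction and 4 opposite directions at 2 mm, and at 3 mm 39 had the same and 1, LOC_Os01g05560, the opposite direction. Over all tested loci these numbers were 975 and 725 at 2 mm and 932 and 439 at 3 mm. None of the segment loci had opposite calls at both lengths, as 0.921% of all tested loci did. Across the 118 loci, the high- and low-temperature differences, which share no library, correlated with Pearson's r = 0.78 and Spearman's rho = 0.61 at 2 mm and 0.79 and 0.64 at 3 mm. Over all tested loci r was 0.30 and 0.35 and rho 0.07 and 0.11. Restricted to the 67 segment loci with at least 1 CPM in every group, r was 0.65 and 0.69 and rho 0.41 and 0.46. All tested loci with that level had r of 0.08 and 0.15 and rho of 0.06 and 0.07. The window was chosen from these same differences, so agreement between temperatures is partly built in. These numbers describe the chosen loci and are no independent support.

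**Figure D5:**
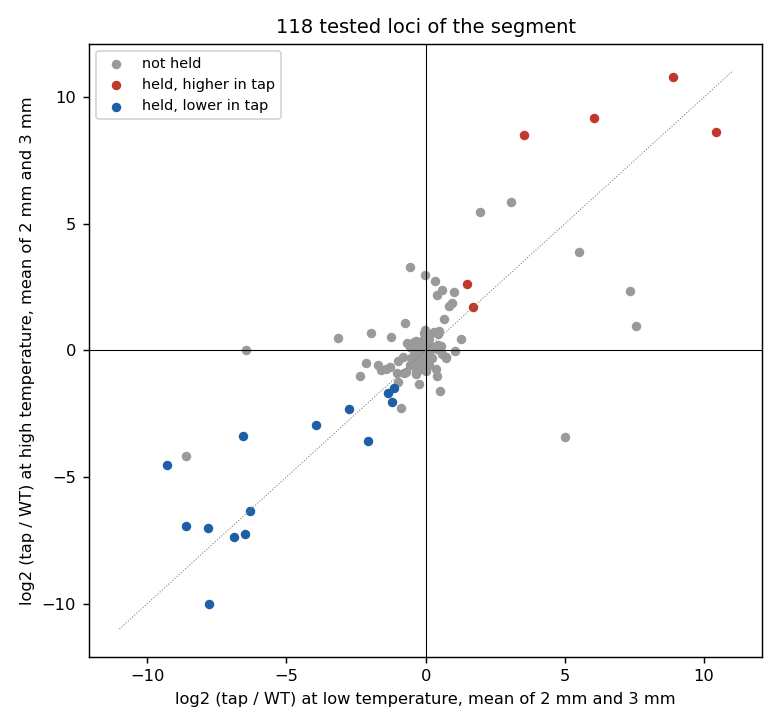
Fitted log2 difference of tap against WT at high temperature (vertical axis) and at low temperature (horizontal axis), each the mean of 2 mm and 3 mm, for the 118 tested loci; red and blue mark held loci and the dotted line is equality. The 20 held loci lie in the lower left and upper right, and a few grey loci differ at a single temperature, such as LOC_Os01g05100 on the left at 0 at high temperature.

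The 10 loci called in the same direction in all 4 comparisons without holding were smaller in size or overlapped in some comparison. LOC_Os01g05630 came nearest, with log2 differences of 2.21, 2.44, 1.08 and 0.96. Its levels were 323, 327 and 354 CPM in tap libraries and 73.2, 66.8 and 77.3 CPM in WT libraries under high temperature at 2 mm, and 269, 283 and 281 CPM in tap libraries and 144, 146 and 140 CPM in WT libraries under low temperature at 3 mm. LOC_Os01g05490, LOC_Os01g05540 and LOC_Os01g06050 were also higher in tap. LOC_Os01g05060, LOC_Os01g05680, LOC_Os01g06000, LOC_Os01g06490, LOC_Os01g06520 and LOC_Os01g06600 were lower. LOC_Os01g05620, the first locus after LOC_Os01g05610, had log2 differences of -0.26, -1.21, -1.06 and -1.79.

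At a pair of loci called for temperature in tap, the genotypes lay closest in 2 mm inflorescences at low temperature. LOC_Os01g06140 had 17.7 ± 0.953 CPM in tap libraries and 3.09 ± 0.481 CPM in WT libraries under high temperature at 2 mm, and 0.759 ± 0.156 CPM in tap libraries and 0.664 ± 0.158 CPM in WT libraries under low temperature at 2 mm (SD, n = 3 each). The ratio of tap to WT was 5.72 and 4.81 at high and 1.14 and 2.02 at low temperature, for 2 mm and 3 mm. LOC_Os01g04660 had 10.5 ± 1.02 CPM in tap libraries and 3.44 ± 0.636 CPM in WT libraries under high temperature at 2 mm, and 0.432 ± 0.187 CPM in tap libraries and 0.316 ± 0.113 CPM in WT libraries under low temperature at 2 mm. In 3 mm inflorescences at low temperature it had 0.788 ± 0.237 CPM in tap libraries and 0.279 ± 0.186 CPM in WT libraries. Its ratio of tap to WT was 3.04 and 4.45 at high and 1.36 and 2.82 at low temperature, for 2 mm and 3 mm, and the interaction was not called at either length. The test of the genotype by temperature interaction called 41 segment loci at 2 mm (26.8% of all tested loci; 13.2% with a higher and 13.6% with a lower difference at high temperature) and 37 at 3 mm (26.4% of all; 14.3% and 12%). The 4 loci with opposite calls at 2 mm were LOC_Os01g04870, LOC_Os01g04910, LOC_Os01g05140 and LOC_Os01g05810, with log2 differences no larger than 1.35 in size.

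The CPM of all 135 loci were also summed. The sum was 5016 ± 196 CPM in tap libraries and 5242 ± 16.6 CPM in WT libraries at 2 mm high. It was 5157 ± 236 CPM in tap libraries and 4911 ± 53.4 CPM in WT libraries at 3 mm high. At low temperature it was 4352 ± 97.9 CPM in tap libraries and 4755 ± 43.5 CPM in WT libraries at 2 mm low, and 4376 ± 67.2 CPM in tap libraries and 4990 ± 115 CPM in WT libraries at 3 mm low (SD, n = 3 each). Held loci were found over the whole range of CPM: 6 of 41 loci whose highest group mean was under 5 CPM (1.12% of all tested loci in that range), 9 of 26 from 5 to under 20 CPM (0.988%) and 5 of 51 at 20 CPM or more (0.593%).

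The response to temperature within a genotype was not used to choose the window. In tap, high temperature changed 86 of 118 loci at 2 mm (51 higher, 35 lower; 69% of all tested loci were called, 32.5% higher and 36.5% lower) and 84 at 3 mm (49 higher, 35 lower; 68.6% of all, 32.9% and 35.7%). In WT it changed 70 at 2 mm (37 higher, 33 lower; 63.8% of all, 29.8% and 34.1%) and 69 at 3 mm (38 higher, 31 lower; 65.8% of all, 30.8% and 35%). The segment's shares called in either direction, 72.9% and 71.2% in tap and 59.3% and 58.5% in WT, lay near those of the table. By direction they lay less near in tap, with 43.2% and 41.5% higher and 29.7% lower at each length. The median size of the log2 change in tap was 0.98 and 0.88, against 0.64 and 0.65 over all tested loci. In WT it was 0.67 and 0.65, against 0.58 and 0.61. Whether the segment differs from the table in this was not tested. Whether temperature or separate processing of the libraries set these differences cannot be told apart.

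LOC_Os01g04880 and LOC_Os01g05460 rose at high temperature in both genotypes. LOC_Os01g04880 had 203 ± 10.8 CPM at high and 53.3 ± 1.41 CPM at low temperature in WT at 2 mm (log2 change 1.93 ± 0.09 SE; edgeR adjusted p = 2e-17; SD, n = 3 each). LOC_Os01g05460 had 18.2 ± 0.334 CPM and 3.69 ± 0.192 CPM (2.30 ± 0.17 SE; edgeR adjusted p = 4e-13). In tap at 2 mm LOC_Os01g04880 rose by log2 2.09 ± 0.09 SE (edgeR adjusted p = 3.3e-18) and LOC_Os01g05460 by 1.51 ± 0.16 SE (edgeR adjusted p = 2.3e-09). In tap, LOC_Os01g06140 and LOC_Os01g04660, whose levels are given above, rose at 2 mm, by log2 4.53 ± 0.24 SE (edgeR adjusted p = 4.7e-16) and 4.58 ± 0.28 SE (edgeR adjusted p = 1.3e-14). Both loci rose in tap at 3 mm as well, by 3.95 ± 0.23 and 3.62 ± 0.26 SE (edgeR adjusted p = 4.7e-15 and 3.8e-13). In WT they rose too, at 2 mm by log2 2.21 ± 0.27 SE and 3.41 ± 0.32 SE (edgeR adjusted p = 2.9e-08 and 1e-10).

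LOC_Os01g05105 had 0 counts in all 12 high-temperature libraries. At low temperature it had 9.68 ± 1.91 CPM in tap libraries and 12 ± 1.95 CPM in WT libraries at 2 mm, and 12.9 ± 1.62 CPM in tap libraries and 14.1 ± 4.78 CPM in WT libraries at 3 mm (SD, n = 3 each). It thus fell at high temperature by at least 188-fold and 247-fold in tap and 236-fold and 275-fold in WT. The low-temperature levels of tap and WT overlapped at this locus. LOC_Os01g04460 fell in both genotypes. In tap it had 6 counts at high and 371 at low temperature at 2 mm (log2 change -5.73 ± 0.45 SE; edgeR adjusted p = 5.9e-12). In WT it had 0 counts at high and 278 at low temperature at 2 mm, at least 82.6-fold lower (edgeR adjusted p = 5.1e-12). LOC_Os01g04430, which had at most 2 counts over the tap libraries of any condition, fell in WT, with 10 counts at high and 1137 at low temperature at 2 mm (log2 change -6.61 ± 0.35 SE; edgeR adjusted p = 5.6e-15).

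Between lengths few loci changed. In tap at high temperature LOC_Os01g04920 and LOC_Os01g04900 were higher at 3 mm (2 of 118; 2.21% of all tested loci, 1.44% higher and 0.774% lower). LOC_Os01g04920 had 19.1 ± 0.544 CPM at 3 mm and 12.6 ± 0.729 CPM at 2 mm (log2 change 0.60 ± 0.12 SE; edgeR adjusted p = 0.0071; SD, n = 3 each). LOC_Os01g04900 had 11.6 ± 0.821 CPM and 8.19 ± 1.47 CPM (0.50 ± 0.13 SE; edgeR adjusted p = 0.032). Without replicate 3 of tap under high temperature at 2 mm neither was called (edgeR adjusted p = 0.056 and 0.23), and with the compared libraries alone neither was (edgeR adjusted p = 0.1 and 0.28). LOC_Os01g04900 was also not called without replicate 1 of tap 2 mm high, replicate 1 of tap 3 mm high or replicate 3 of tap 3 mm high (edgeR adjusted p = 0.12, 0.21 and 0.088), each of which left 1 call. Without replicate 2 of tap 2 mm high 6 loci were called, and without replicate 2 of tap 3 mm high 7.

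In tap at low temperature 3 loci changed (1.33% of all tested loci, 0.558% higher and 0.774% lower), LOC_Os01g04920 again upward and LOC_Os01g06060 and LOC_Os01g06050 downward at 3 mm. LOC_Os01g06060 had 7.06 ± 1.97 CPM at 3 mm and 18 ± 3.32 CPM at 2 mm (log2 change -1.35 ± 0.24 SE; edgeR adjusted p = 0.0026). LOC_Os01g06050 had 22.2 ± 0.647 CPM and 31.6 ± 1.03 CPM (-0.51 ± 0.11 SE; edgeR adjusted p = 0.011; SD, n = 3 each). Without replicate 1 of tap under low temperature at 2 mm LOC_Os01g04920 and LOC_Os01g06050 were not called (edgeR adjusted p = 0.074 and 0.077), which left 1 call. Without replicate 3 of the same group LOC_Os01g04920 lost its call (edgeR adjusted p = 0.05), as LOC_Os01g06050 did without replicate 2 of tap at 3 mm (edgeR adjusted p = 0.077).

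In WT 9 loci changed at high temperature (5 higher, 4 lower at 3 mm; 6.37% of all tested loci, 2.65% higher and 3.72% lower). Among them LOC_Os01g06550 had 82.8 ± 6.44 CPM at 3 mm and 46.2 ± 1.65 CPM at 2 mm (log2 change 0.84 ± 0.11 SE; edgeR adjusted p = 1.1e-05). LOC_Os01g06060 had 2.34 ± 0.892 CPM and 6.2 ± 1.25 CPM (-1.41 ± 0.28 SE, edgeR adjusted p = 0.0021). LOC_Os01g06560 (log2 change 0.89) and LOC_Os01g04630 (-0.49) were called too, less stably. LOC_Os01g06560 lost its call without replicate 2 or 3 of WT 2 mm high or replicate 1 of WT 3 mm high (edgeR adjusted p = 0.051, 0.074 and 0.14). LOC_Os01g04630 lost its call without replicate 2 of WT 2 mm high or of WT 3 mm high (edgeR adjusted p = 0.12 and 0.057). Without replicate 2 of WT 2 mm high 2 loci were called, without its replicate 3 there were 5, and without replicate 2 of WT 3 mm high 3. In WT at low temperature edgeR called 0 loci (0.368% of all tested loci, 0.22% higher and 0.148% lower), with 8 at an unadjusted p under 0.05, 1 by DESeq2 and 1 by edgeR without replicate 3 of WT at 3 mm.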

How the data were processed

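RNA-seq libraries of rice inflorescences were analysed, 24 in 8 groups of 3. Extraction used an RNeasy kit and library construction a SMARTER mRNA-Seq kit, per the labels' protocols. The submitters' processing notes name HISAT2, HTSeq and Trimmomatic and the genome build IRGSP-1.0, with no version. Strand setting and annotation release are stated in none of the sources used here, so reads of overlapping, antisense or near-identical loci cannot be told apart. The authors deposited raw read counts per locus in 1 table. Of its 26480 rows, 70 had no values in the high-temperature columns and were left out, none of them in the segment.

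Counts were tested with edgeR 4.0.16 (limma 3.58.1, R 4.3.3) by the robust quasi-likelihood F test, with TMM normalization, the default filter (23658 loci left) and a mean per group over all 24 libraries (16 residual degrees of freedom). P-values were adjusted by Benjamini-Hochberg over all tested loci within each of 14 comparisons, at 0.05. The scripts were tested on simulated counts. For groups at 0 counts, folds are bounds that set the group's sum to 3 counts; with 1 to 3 counts its ratio has an exact 95% binomial interval. Both cover counting error only. Replicates differed by more than counting noise (chi-square per locus 3.39 to 30.8), so none was treated as a duplicate.

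Loci named in full were the 5 higher and 5 lower held loci with the largest mean log2 difference and at least 2 CPM on average in the higher genotype; for temperature and length, up to 2 loci per direction with at least 5 CPM in a compared group and no overlap, of which the text gives a selection. LOC_Os01g05420, 05430, 05620, 05630, 06790, 06420, 06520, 06836, 06882, 06890, 05100, LOC_Os01g07250, LOC_Os01g08440 and LOC_Os01g09290 were named after their values were seen. The members, lists and rules were chosen with earlier results of these data known. Alternatives were DESeq2 1.42.0, RLE size factors, no filter, the compared libraries alone, a replicate block, other thresholds and each library left out. Plots were made with matplotlib 3.10.9.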

Additional observations from a re-analysis of the deposited data

Results flagged for a closer look

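The difference between tap and WT itself depended on temperature at 41 of 118 tested segment loci at 2 mm and at 37 at 3 mm, by edgeR's test of the genotype by temperature interaction at an adjusted p under 0.05. Of these, 28 and 24 had a higher log2 difference of tap against WT at high than at low temperature, and 13 and 13 a lower one. Over all tested loci 26.8% and 26.4% were called (13.2% and 14.3% with the higher, 13.6% and 12% with the lower difference). The interaction is built from the tap against WT differences that chose the window, so these numbers are a description, and temperature cannot be told apart from separate processing of the libraries.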

How the results depend on the processing

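Of 223 alternative values of the counts given above, 204 lay within 1.5 times of the reported one and 19 did not. The 20 loci that held numbered 19 to 21 with each library left out, 24 at 1.5-fold, 15 at 4-fold, and 30 with adjusted p in place of fold and overlap. At 1 CPM or more in the higher genotype in each comparison, a limit chosen after seeing the data, they numbered 13 (119 of the 195 over the table). LOC_Os01g04430, LOC_Os01g04470, LOC_Os01g05220, LOC_Os01g05280, LOC_Os01g05450, LOC_Os01g06740 and LOC_Os01g06920 then dropped out. The held loci then ran from LOC_Os01g04490 to LOC_Os01g06660, and the run of 4 from LOC_Os01g05180 was broken. Loci added at 1.5-fold included LOC_Os01g05630, LOC_Os01g06130 and LOC_Os01g06490, between LOC_Os01g05620 and LOC_Os01g06500, where none held at 2-fold. Loci on in a genotype and off in the other in all 4 comparisons numbered 2 to 3 with each library left out, and 3 at each other limit. The members changed with the limit, however. At 5 or more against 0 counts they were LOC_Os01g05220, LOC_Os01g05280 and LOC_Os01g06740. At 20 or more against at most 2 counts they were LOC_Os01g05510, LOC_Os01g05530 and LOC_Os01g06510. Neither LOC_Os01g05510 nor LOC_Os01g06740 met the rule at both of these limits. The counts that moved were, besides that of 13, those of length. For tap 3 mm against 2 mm at high temperature 2 loci became 1 with no filter, 0 with the compared libraries alone and 0 to 7 with each library left out. For WT at high temperature 9 became 5 with the compared libraries alone and 2 to 9 with each library left out. For tap at low temperature 3 became 8 with the compared libraries alone and 1 to 3 with each left out. For WT at low temperature 0 became 1 with no filter, with the compared libraries alone and with DESeq2, and 0 to 1 with each left out. The cause of these changes was not tested. No value of a named locus, of 1146, reversed, but these loci were chosen for library values that do not overlap, so this is no support. Of 275 temperature or length values, 17 lost their call, all of length. DESeq2 gave no adjusted p for 27, 5, 3 and 3 segment loci in these length comparisons.

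Replicate numbers did not pair the libraries: correlations of same-numbered deviations ran from -0.127 to 0.157, and in 0 of 12 pairs of groups did every library correlate best with its own number. With a replicate block the held loci numbered 20, and calls of tap against WT 66, 63, 58 and 60 against 68, 66, 59 and 60 with no block. Loci near 0 counts limit the sizes of the largest differences.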
